A study of Homo sapiens with 6 samples.

Results

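The cornified envelope is the protein shell that keratinocytes of stratified epithelium build beneath the plasma membrane as they differentiate. Precursor proteins such as involucrin and the small proline-rich (SPRR) proteins are cross-linked into it by transglutaminases, chiefly transglutaminase 1. The S100A7, S100A8 and S100A9 proteins are small calcium-binding proteins that squamous cells make in differentiation and inflammation, and S100A8 and S100A9 pair to form calprotectin. The genes described here are 10 named genes of this programme, taken by symbol from the 16330 genes of the deposited tables: the cross-linking enzyme TGM1, the precursors IVL, SPRR1A, SPRR1B, SPRR2A and SPRR3, the secreted protein suprabasin (SBSN), and S100A7, S100A8 and S100A9. A gene was kept where at least 1 library had 10 reads, which kept 8 of the 10 and left out SBSN and S100A7.

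RNA came from HN12, an established line of squamous carcinoma of the head and neck, after 24 h with CPI-613 in 3 libraries or with its solvent DMSO (Control) in 3 libraries. CPI-613 (devimistat) is a lipoate analogue aimed at the mitochondrial pyruvate and 2-oxoglutarate dehydrogenase complexes. All libraries came from this 1 line in DMEM with serum, and no dose of CPI-613 is given in the sources used here. Whether replicates came from separate cultures is not stated in the labels, so each p-value is set against library-to-library spread that may be technical.

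The libraries held 13458530 to 15486513 estimated counts with CPI-613 and 11531942 to 12508570 in Control. Libraries of 1 group differed well beyond counting error: a chi-square over its degrees of freedom gave 3.86 for Control replicates 1 and 3 and at least 34.36 for every other pair in the series. CPI-613 replicates 1 and 3 gave 200.38, more than CPI-613 replicate 1 gave with any Control library (69.96 to 102.29). CPI-613 replicate 2 gave 54.77 with replicate 1 and 63.47 with replicate 3 of its group. CPI-613 replicate 3 and Control replicate 2 departed from their group means in a like way (r = 0.746 across genes, which are not independent replicates). The 13 squamous markers, such as KRT5 and KRT14, were all high enough to be tested, with a summed level of 4573 to 11460 estimated counts scaled to a common library size (CPM) with CPI-613 and 7400 to 10890 CPM in Control. Of 14 leukocyte markers 8 were in the table, and PTPRC, the pan-leukocyte marker CD45, had 1, 0 and 0 counts with CPI-613 and 1, 2 and 1 in Control.

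8 of the 10 genes lie in the epidermal differentiation complex of chromosome 1 (GRCh38), a cluster of genes for keratinocyte differentiation. From the RefSeq table, IVL (gene ID 3713) spans 152908546 to 152911886, SPRR1A (6698) 152984081 to 152985814, SPRR3 (6707) 153001749 to 153003856, SPRR1B (6699) 153031203 to 153032900 and SPRR2A (6700) 153056120 to 153057512. S100A9 (6280) spans 153357854 to 153361023, S100A8 (6279) 153390032 to 153422583 and S100A7 (6278) 153457744 to 153460651. TGM1 (7051) lies on chromosome 14 at 24249114 to 24263177 and SBSN (374897) on chromosome 19 at 35523367 to 35528311.

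The bases just upstream of the annotated start are shown for 4 genes that the results below compare: the paralogs SPRR1A and SPRR1B, set side by side as a ratio, SPRR2A, and S100A9. They are the 250 bases before the start, 5′ to 3′ on the gene's strand, from RefSeq (GRCh38.p14), at chr1:152983831-152984080 (plus strand), chr1:153030953-153031202 (plus), chr1:153057513-153057762 (minus) and chr1:153357604-153357853 (plus). Capitals mark each match to TGANTCA, the motif bound by AP-1 (FOS and JUN dimers), which reads the same on both strands.
SPRR1A: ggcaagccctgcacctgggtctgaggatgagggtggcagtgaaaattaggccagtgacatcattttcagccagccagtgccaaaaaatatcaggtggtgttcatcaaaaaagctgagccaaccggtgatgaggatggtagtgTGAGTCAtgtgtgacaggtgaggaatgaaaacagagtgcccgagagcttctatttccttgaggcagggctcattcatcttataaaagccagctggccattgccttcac
SPRR1B: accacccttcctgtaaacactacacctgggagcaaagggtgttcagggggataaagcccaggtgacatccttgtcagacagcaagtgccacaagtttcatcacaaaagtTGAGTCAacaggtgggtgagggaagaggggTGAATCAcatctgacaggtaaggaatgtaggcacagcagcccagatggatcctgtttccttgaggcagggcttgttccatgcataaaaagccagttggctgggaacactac
SPRR2A: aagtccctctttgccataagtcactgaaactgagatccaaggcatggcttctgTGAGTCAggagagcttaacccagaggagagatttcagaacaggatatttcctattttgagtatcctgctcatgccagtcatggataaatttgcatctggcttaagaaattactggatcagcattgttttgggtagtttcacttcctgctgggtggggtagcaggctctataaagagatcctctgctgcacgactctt
S100A9: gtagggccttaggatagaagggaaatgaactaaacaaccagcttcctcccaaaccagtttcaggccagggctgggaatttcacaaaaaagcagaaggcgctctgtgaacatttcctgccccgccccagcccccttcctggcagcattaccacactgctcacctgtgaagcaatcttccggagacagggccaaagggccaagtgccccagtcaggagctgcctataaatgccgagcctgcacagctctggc
The motif was present in all 6 envelope genes with an entry (IVL, SPRR1A, SPRR1B, SPRR2A, SPRR3 and SBSN) and in 0 of the 3 S100 genes, where S100A8 has 3 annotated windows without it. Taking the first window of each gene in the RefSeq table, 1801 of 27305 (6.6%) hold it. In SPRR1A the match begins 108 bases before the start and in SPRR2A 197 bases before it, while SPRR1B has matches beginning 141 and 111 bases before it. The letters TATAAA, searched on both strands, stand in 4 of the 6 envelope windows and in at least 1 window of all 3 S100 genes. The first of the 3 S100A8 windows lacks them. They stand in 11.1% of the first windows of all genes. The SPRR1A and SPRR1B windows were identical at 64.2% of aligned positions, and those of SPRR1A and SPRR2A at 48.9%. A match describes the letters of the window and says nothing of binding in these cells.

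The comparison of CPI-613 with Control asks how these transcripts differ after 24 h with the compound. S100A8, S100A9 and TGM1 were lower in every CPI-613 library than in any Control library, at 3.79-fold to 7.09-fold lower group means, and IVL and SPRR2A lay below Control in the same way at lower counts. SPRR1A was 2.36-fold higher with no overlap, whereas its neighbour and paralog SPRR1B overlapped between the groups. Of the 8 genes kept, 7 had enough counts to be tested, and none was called by edgeR's quasi-likelihood test at a Benjamini-Hochberg adjusted p under 0.05 over 12671 genes. That test called 3.18% of all genes, 1.94% higher and 1.24% lower. IVL and SPRR2A passed the count filter only through Control, where they were higher, so counts that include them support no direction. The median log2 fold change over all tested genes was 0.02. At an unadjusted p under 0.05, SPRR1A was higher and 4 of the 7 were lower, SPRR2A among them, where 14.4% of all tested genes passed in either direction. DESeq2 called 3 lower (TGM1, S100A8 and S100A9; of all genes, 5.92% were called, 3.2% higher and 2.72% lower) and limma-voom called none. Apart from IVL and SPRR2A, every CPI-613 library lay above Control for SPRR1A and below it for TGM1, S100A8 and S100A9, and the groups overlapped for SPRR1B. Over all tested genes, 11.8% lay wholly above Control, 9.17% wholly below, and 21.0% in all did not overlap. In RNA from whole cultures, fewer cells that express a gene and less RNA per cell cannot be told apart.

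**Figure D1:**
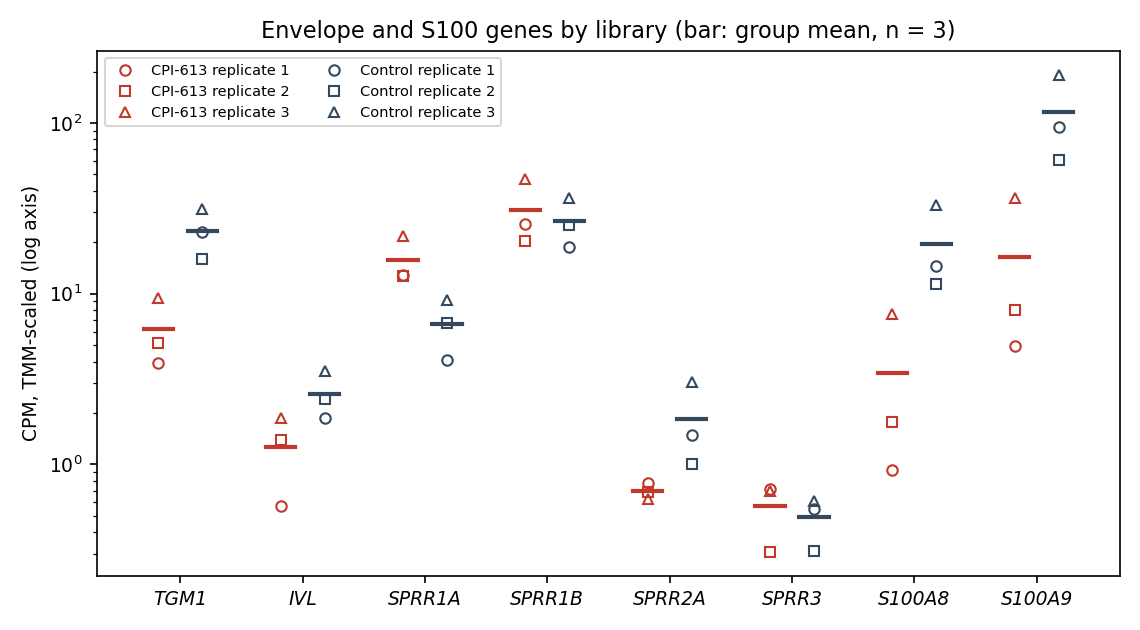
TMM-scaled CPM of the 8 genes kept, on a log axis, with 1 symbol per library (circle, square and triangle for replicates 1, 2 and 3) and a bar at each group mean. CPI-613 libraries lie below all Control libraries for TGM1, IVL, SPRR2A, S100A8 and S100A9, above them for SPRR1A, and among them for SPRR1B and SPRR3.

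Levels of different genes were set side by side in the deposited values taken as FPKM, a unit that divides counts by transcript length. With CPI-613, SPRR1B had the highest mean at 73.8 ± 27.2 FPKM, ahead of S100A9 at 42.2 ± 41.1, SPRR1A at 34.6 ± 8.16 and S100A8 at 16.7 ± 16.7 FPKM (SD, n = 3). The order continued with TGM1 at 2.23 ± 0.803, SPRR2A at 1.49 ± 0.343, S100A7 at 1.28 ± 0.866, SPRR3 at 0.813 ± 0.355, IVL at 0.597 ± 0.258 and SBSN at 0.243 ± 0.108 FPKM. Neighbours in this order overlapped in their library values, except S100A8 and TGM1. In Control, S100A9 led at 373 ± 222 FPKM, then S100A8 at 121 ± 71.5, SPRR1B at 75.2 ± 25.4, SPRR1A at 17.1 ± 6.49 and TGM1 at 10.1 ± 3.46 FPKM. Below these stood SPRR2A at 4.55 ± 2.65, S100A7 at 2.75 ± 0.972, IVL at 1.45 ± 0.467, SPRR3 at 0.797 ± 0.276 and SBSN at 0.143 ± 0.0404 FPKM. Here the neighbours SPRR1B and SPRR1A, IVL and SPRR3, and SPRR3 and SBSN did not overlap, while the other neighbours did.

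S100A9, the more abundant transcript of the calprotectin pair, measured 4.92, 7.995 and 36.1 CPM in CPI-613 replicates 1 to 3, against 95.0, 60.6 and 191.9 CPM in Control replicates 1 to 3. CPI-613 replicate 3 was the highest of its group and Control replicate 3 the highest of all, and every CPI-613 library lay below every Control library. The group means were 16.3 ± 17.2 and 115.8 ± 68.1 CPM, 7.09-fold lower with CPI-613, from 69, 104 and 466 estimated counts with CPI-613 and 1212, 780 and 2513 in Control. On the log2 scale the fold change was -2.83 (SE 0.81) and was not called (edgeR, Benjamini-Hochberg adjusted p = 0.141; range across alternatives 0.00201 to 0.470). Without CPI-613 replicate 3 it was -4.16 and passed (edgeR, Benjamini-Hochberg adjusted p = 0.00859), and without Control replicate 3 it was -2.25.

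S100A8 encodes the other calprotectin subunit. Its libraries measured 0.927, 1.77 and 7.59 CPM with CPI-613, against 14.6, 11.4 and 32.8 CPM in Control. The libraries stood in the same order within each group as for S100A9, and the groups did not overlap. The means of 3.43 ± 3.63 and 19.6 ± 11.6 CPM differ 5.72-fold (log2 fold change -2.52, SE 0.81; edgeR, Benjamini-Hochberg adjusted p = 0.187; range across alternatives 0.00512 to 0.605). Without CPI-613 replicate 3 the log2 fold change was -3.86 (edgeR, Benjamini-Hochberg adjusted p = 0.0132), and without Control replicate 3 it was -1.92. Of its counts, 84.6% to 100% per library were assigned to 1 of its transcripts.

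The S100A8 to S100A9 ratio of counts varied little between libraries compared with the CPM of either gene. It was 0.188, 0.221 and 0.210 in CPI-613 replicates 1 to 3 and 0.153, 0.189 and 0.171 in Control replicates 1 to 3, and the groups overlapped (exact permutation test, two-sided p = 0.2, with 0.1 the smallest p that 3 against 3 libraries allow). Over the 6 libraries, the tested genes whose log2 CPM was most alike to that of S100A9 were S100A8 (r = 0.998), the ephrin EFNA1 (r = 0.997) and the interferon-induced OASL (r = 0.994). These correlations are descriptions over 6 libraries that share the 2 groups. S100A7 (psoriasin) had 1, 6 and 4 counts with CPI-613 and 7, 4 and 8 in Control, too few to compare.

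Of the leukocyte markers, which matter here because leukocytes also make S100A8 and S100A9, the 8 in the table summed to 50.2 to 89.9 CPM with CPI-613 and 68.9 to 101.1 CPM in Control. None of the 8 was at 0 in every library. CD14, the co-receptor for lipopolysaccharide, was the 1 marker called: it fell to 2.43 ± 1.79 CPM with CPI-613, against 24.4 ± 6.45 CPM in Control (SD, n = 3; edgeR, Benjamini-Hochberg adjusted p = 0.0250). LCP1, the leukocyte plastin, lay the other way, at 7.33 ± 2.06 CPM with CPI-613 and 3.77 ± 0.582 CPM in Control with no overlap, and was called higher only with the GC and length offset (edgeR, Benjamini-Hochberg adjusted p = 0.191 as reported and 0.0191 in that fit). CSF1R, the receptor for macrophage colony-stimulating factor, lay at 1.52 ± 0.544 and 2.84 ± 0.388 CPM, with every CPI-613 library below Control and no call. CD68 made up most of the sum, at 55.1 ± 19.6 and 50.3 ± 9.55 CPM. S100A12, a granulocyte gene of the same cluster, had 0, 0 and 1 counts with CPI-613 and 3, 1 and 2 in Control. The part of such cells in the S100A8 and S100A9 values was not tested.

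TGM1, the cross-linking enzyme, measured 3.92, 5.15 and 9.45 CPM in CPI-613 replicates 1 to 3, against 23.1, 15.9 and 31.3 CPM in Control replicates 1 to 3. The highest CPI-613 library lay below the lowest Control library. Means were 6.18 ± 2.90 and 23.4 ± 7.70 CPM, 3.79-fold lower with CPI-613 (log2 fold change -1.92, SE 0.42). TGM1 came nearest to the threshold of the genes described here (edgeR, Benjamini-Hochberg adjusted p = 0.0656; range across alternatives 0.000378 to 0.305). It passed in 7 of 18 alternatives, among them DESeq2 and, at -2.36, the fit without CPI-613 replicate 3 (edgeR, Benjamini-Hochberg adjusted p = 0.0126). The table holds 2 records of its transcript with equal counts in each library, and these were summed.

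IVL, involucrin, measured 0.570, 1.38 and 1.86 CPM with CPI-613, against 1.88, 2.41 and 3.51 CPM in Control, from 8 to 24 counts and 24 to 46 counts. CPI-613 replicate 3, at 1.86 CPM, lay just below Control replicate 1, at 1.88 CPM, so the groups only just failed to overlap. The log2 fold change of -1.03 (SE 0.47) was not called (edgeR, Benjamini-Hochberg adjusted p = 0.388) and was called in 0 of 18 alternatives. It reached 10 counts in 2 of 3 CPI-613 libraries, and SPRR2A in 1 of 3, so both were tested only because every Control library reached that count.

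SPRR1A measured 12.8, 12.6 and 21.9 CPM in CPI-613 replicates 1 to 3, against 4.08, 6.76 and 9.19 CPM in Control replicates 1 to 3. All CPI-613 libraries lay above all Control libraries, with means of 15.8 ± 5.27 and 6.68 ± 2.56 CPM. The log2 fold change of 1.24 (SE 0.39) was not called (edgeR, Benjamini-Hochberg adjusted p = 0.178), was above 0 in all 18 alternatives and passed in 0 of them.

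SPRR1B encodes a closely related precursor. It measured 25.4, 20.4 and 47.1 CPM with CPI-613 and 18.7, 25.1 and 36.6 CPM in Control. The groups overlapped, with means of 31.0 ± 14.2 and 26.8 ± 9.07 CPM and a log2 fold change of 0.21 (SE 0.40; edgeR, Benjamini-Hochberg adjusted p = 0.858), a value whose sign turned in 5 of 18 alternatives. Its nearest genes by log2 CPM over the 6 libraries were STAG3 (r = 0.944), FTO (r = 0.922) and AKR1C2 (r = 0.921).

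The ratio of SPRR1A to SPRR1B counts does not depend on the scaling of libraries. It was 0.504, 0.619 and 0.464 in CPI-613 replicates 1 to 3, against 0.218, 0.269 and 0.252 in Control replicates 1 to 3. The means of 0.529 ± 0.080 and 0.246 ± 0.026 (SD, n = 3) stood 1.10 apart on the log2 scale. The lowest CPI-613 ratio lay well above the highest Control ratio, and the exact two-sided permutation p was 0.1, the smallest this design allows (0.15 after Benjamini-Hochberg adjustment over the 3 ratios computed). The 2 genes are alike enough to share reads. In 5 of 6 libraries the counts of each gene were whole within 0.03, and in Control replicate 3, where they were 120.37 and 478.64, their sum of 599.01 was whole.

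SPRR2A measured 0.781, 0.692 and 0.625 CPM with CPI-613, against 1.49, 1.01 and 3.05 CPM in Control, from 8 to 11 counts and 13 to 40 counts. The groups did not overlap (log2 fold change -1.39, SE 0.47; edgeR, Benjamini-Hochberg adjusted p = 0.220), and Control replicate 3 was the library farthest from the rest. Without that library the log2 fold change was -0.83. Its paralog SPRR2D, which lies between SPRR1B and SPRR2A, was called higher: it rose to 15.2, 12.9 and 17.3 CPM with CPI-613, against 2.74, 3.81 and 4.05 CPM in Control (log2 fold change 2.10, SE 0.28; edgeR, Benjamini-Hochberg adjusted p = 0.0130). No gene of the table, SPRR2D and every other call below included, was called by edgeR without Control replicate 1 or without Control replicate 3.

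The SPRR2A to SPRR2D ratio of counts was 0.0514, 0.0536 and 0.0362 with CPI-613, against 0.543, 0.265 and 0.754 in Control (exact two-sided permutation p = 0.1, the smallest possible; 0.15 adjusted over the 3 ratios). The SPRR2 genes are near-identical copies, and the authors' counting split some reads between them: SPRR2A counts were whole within 0.03 in 3 of 6 libraries, whereas the sum over SPRR2A, SPRR2D, SPRR2E, SPRR2F and SPRR2G was whole in all 6. That sum was 230, 180 and 241 counts with CPI-613 and 55, 69 and 95.01 in Control. The single values of SPRR2A and SPRR2D are therefore uncertain, and the summed family was higher in every CPI-613 library.

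**Figure D2:**
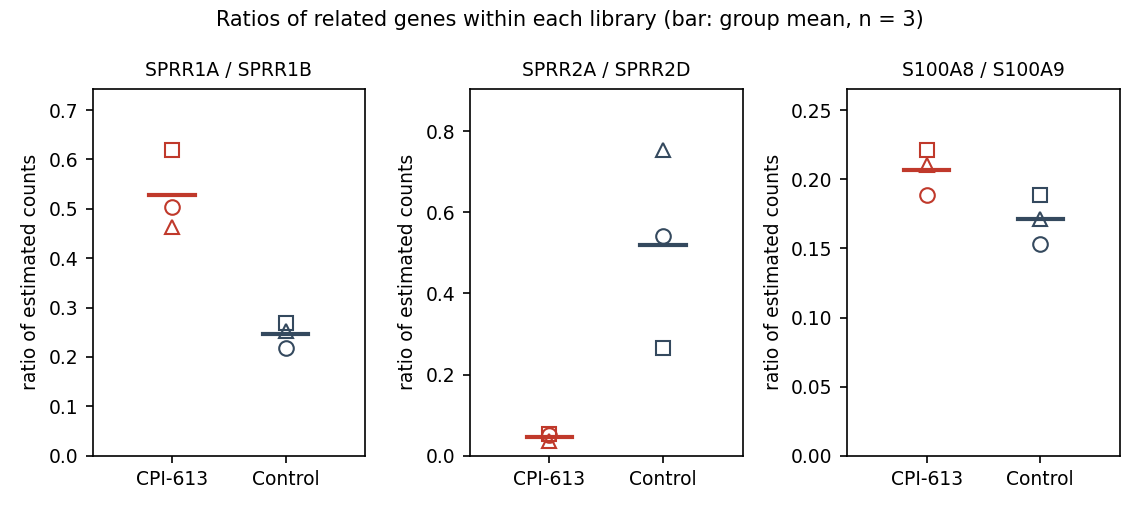
Ratio of estimated counts within each library for SPRR1A over SPRR1B, SPRR2A over SPRR2D and S100A8 over S100A9, each axis from 0, with 1 symbol per library and a bar at the mean of 3. The first ratio is higher with CPI-613 (0.464 to 0.619) than in Control (0.218 to 0.269), the second is lower (0.0362 to 0.0536 with CPI-613 and 0.265 to 0.754 in Control), and the third overlaps.

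SPRR3, a precursor of internal stratified epithelia, had 10, 4 and 9 counts with CPI-613 and 7, 4 and 8 in Control, and a difference was not detectable at this depth. SBSN had 5, 5 and 3 counts with CPI-613 and 3, 3 and 2 in Control.

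Within the epidermal differentiation complex, taken from S100A10 at 151982915 to S100A1 at 153632039 on chromosome 1, 39 genes were in the table and 18 were tested. SPRR2D was called higher, none was called lower, and the median log2 fold change of the 18 was 0.29. DESeq2 called 5 lower, S100A8, S100A9, PGLYRP3, PGLYRP4 and TCHH, where it called 2.72% of all genes lower. Limma-voom called none lower. The unadjusted edgeR p was under 0.05 for 4 higher and 7 lower genes, where 14.4% of all tested genes passed in either direction. The 7 lower genes include SPRR2A, PGLYRP3, PGLYRP4 and TCHH, which edgeR tested only through Control, so this count supports no direction. S100A8 and S100A9 stood next to PGLYRP3 and PGLYRP4, antibacterial peptidoglycan recognition proteins named here after their values were seen. PGLYRP3 had a log2 fold change of -2.11 (SE 0.55) and PGLYRP4 of -2.57 (SE 0.87), neither called. PGLYRP3 had 8, 6 and 22 counts with CPI-613 and 39, 40 and 75 in Control. PGLYRP4 had 1, 6 and 23 counts with CPI-613 and 51, 29 and 98 in Control. Both passed the count filter only through Control, where they were higher, so they add no support for a direction.

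**Figure D3:**
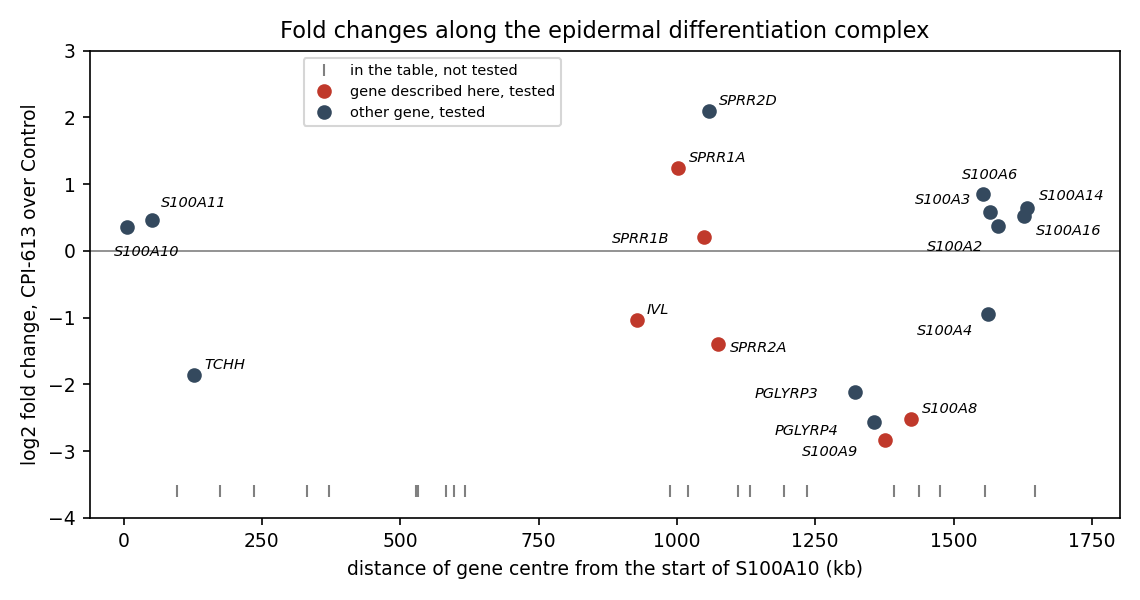
Log2 fold change of CPI-613 over Control for the 18 tested genes of the complex by the distance of the gene's centre from the start of S100A10, in kb, with the genes described here in red and the 21 untested genes as ticks. Points above 0 are higher with CPI-613. The 4 tested genes between 1322.1 and 1423.4 kb, PGLYRP3 to S100A8, have estimates of -2.11 to -2.83. The tested genes at both ends lie near or above 0 except TCHH and S100A4. IVL, SPRR2A, PGLYRP3, PGLYRP4 and TCHH passed the count filter only through Control, where they were higher.

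Of the other S100 genes 14 were in the table and 9 were tested. None was called by edgeR, DESeq2 or limma-voom, and the unadjusted edgeR p was under 0.05 for S100A6 and S100A14 (higher) and S100A4 (lower). With the GC and length offset edgeR called S100A6 higher and S100A4 lower. Their median log2 fold change was 0.47, with 8 estimates above 0. S100A6 and S100A11, the most abundant, measured 1048 ± 461 and 563 ± 187 CPM with CPI-613 and 580.3 ± 33.8 and 408 ± 27.8 CPM in Control. Of the receptors and partners of S100 proteins, 5 of 7 were tested and none was called or had an unadjusted p under 0.05, also by DESeq2 and limma-voom, with a median of -0.02. ANXA2, the S100A10 partner annexin A2, measured 1800 ± 342 and 1368 ± 142 CPM, and BSG, the receptor basigin, 799 ± 314 and 645 ± 82.6 CPM. TLR4, a receptor for calprotectin, had 0, 0 and 1 counts with CPI-613 and 0 in all Control libraries.

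Late envelope proteins of the outer epidermis had few counts. Of 27 listed genes 9 were in the table and TCHH (trichohyalin) alone was tested, at 1.595 ± 1.04 CPM with CPI-613 and 5.86 ± 1.85 CPM in Control (log2 fold change -1.86, SE 0.50; edgeR, Benjamini-Hochberg adjusted p = 0.120; called lower by DESeq2 and not by limma-voom). TCHH had 39, 15 and 11 counts with CPI-613 and 86, 48 and 93 in Control. The filter scales its minimum of 10 counts to library size, and CPI-613 replicate 3, the largest library, fell short of it. TCHH therefore passed the filter only through Control, where it was higher, and adds no support for a direction. LCE3D, a late cornified envelope gene, had 8, 2 and 8 counts with CPI-613 and 0 in each Control library. FLG, profilaggrin, had 0, 2 and 1 counts with CPI-613 and 1, 4 and 2 in Control.

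Of 13 scaffold and junction genes of the envelope 8 were tested and CSTA alone was called, and their median estimate was 0.31 on the log2 scale. The unadjusted edgeR p was also under 0.05 for PPL (higher) and CLDN1 (lower). With the GC and length offset edgeR called PPL higher as well as CSTA. CSTA, cystatin A, a cysteine protease inhibitor that is also cross-linked into the envelope, rose to 111.8, 108.2 and 138.5 CPM with CPI-613, against 48.8, 51.2 and 54.6 CPM in Control (log2 fold change 1.21, SE 0.18; edgeR, Benjamini-Hochberg adjusted p = 0.0182). Among the other transglutaminases and enzymes of envelope processing 5 of 14 in the table were tested and none was called by edgeR or limma-voom. ALOXE3, a lipoxygenase of the epidermal lipid barrier, was higher at an unadjusted p under 0.05 and by DESeq2, and the list's median was 0.27. With the GC and length offset edgeR called ALOXE3 higher. TGM2, tissue transglutaminase, measured 111.8 ± 47.2 CPM with CPI-613 and 82.8 ± 27.3 CPM in Control.

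Of 11 tested protease inhibitors of squamous cells 1 was called higher, 2 lower and 8 did not pass. The median estimate was -0.79 on the log2 scale. SERPINB3, SERPINB13, SPINK5 and A2ML1 passed the count filter only through Control, where their means were higher. The count of lower genes and the median therefore support no direction. SPINK5 had 20, 3 and 2 counts with CPI-613, and A2ML1 had 7, 9 and 10.9. SERPINB2, plasminogen activator inhibitor 2 and itself an envelope protein, rose to 440 ± 68.5 CPM with CPI-613, against 127 ± 62.4 CPM in Control. SERPINB13 fell to 0.606 ± 0.154 CPM with CPI-613, against 14.4 ± 6.08 CPM in Control, and SERPINB3 to 0.0496 ± 0.0431 CPM, against 7.49 ± 4.21 CPM in Control (edgeR, Benjamini-Hochberg adjusted p from 0.00720 to 0.0445 for the 3 genes). SERPINB13 had 6, 9 and 9 counts with CPI-613 and SERPINB3 had 1, 0 and 1, so both passed the count filter only through Control, where they were higher. SERPINB3 and SERPINB4 are close paralogs whose reads can be split between them, and SERPINB4 had 2, 0 and 0 counts with CPI-613 and 26.1, 8 and 61.2 in Control.

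Of 25 tested regulators of cornification genes 22 did not pass, and the median estimate was 0.04 on the log2 scale. The AP-1 subunit FOS rose to 44.0, 51.4 and 60.5 CPM with CPI-613, against 8.31, 19.7 and 16.9 CPM in Control, and JUN to 100.1, 134 and 174 CPM, against 44.1, 56.4 and 53.5 CPM in Control. ELF3, an epithelial ETS factor, fell to 42.0, 66.9 and 100.6 CPM with CPI-613, against 537, 359 and 547 CPM in Control (edgeR, Benjamini-Hochberg adjusted p = 0.0121, and 0.0441 for FOS and 0.0314 for JUN). The groups were separate for all 3 factors. The squamous markers gave no call among 13 by edgeR, DESeq2 or limma-voom, where KRT6B (higher), KRT5 and PKP1 (lower) had an unadjusted edgeR p under 0.05, and the median was -0.26. With the GC and length offset edgeR called KRT5 lower. KRT5, a basal keratin, measured 962 ± 552 and 2231 ± 295 CPM. KRT17 measured 2555 ± 1365 and 2387 ± 752 CPM.

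Fibroblast markers (2 tested of 5 in the table) gave no call by edgeR, DESeq2 or limma-voom and none at an unadjusted p under 0.05, with summed levels of 31.2 to 41.5 CPM with CPI-613 and 35.8 to 41.9 CPM in Control. Their sum was mostly COL1A1, at 34.0 ± 4.49 and 36.3 ± 3.20 CPM. The 5 endothelial markers were too low for the edgeR test and summed to 0.214 to 0.846 CPM and 1.30 to 2.90 CPM, and DESeq2, which tested them, called CDH5 lower.

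The calls on S100A8, S100A9 and TGM1 depended on how libraries were treated, as the plot of estimates by setting shows. When each library's trend on the GC content and length of transcripts was removed, S100A9 had a log2 fold change of -3.34 (SE 0.63), S100A8 of -2.87 (SE 0.64) and TGM1 of -2.19 (SE 0.34), and all 3 were called lower (edgeR with Benjamini-Hochberg adjustment, adjusted p = 0.0150, 0.0283 and 0.00683). That fit called 11.5% of all tested genes, 6.09% higher and 5.43% lower. SPRR1A was not called there (1.05, SE 0.33; edgeR, Benjamini-Hochberg adjusted p = 0.0886), nor was IVL (-1.30, SE 0.37; adjusted p = 0.0633).

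**Figure D4:**
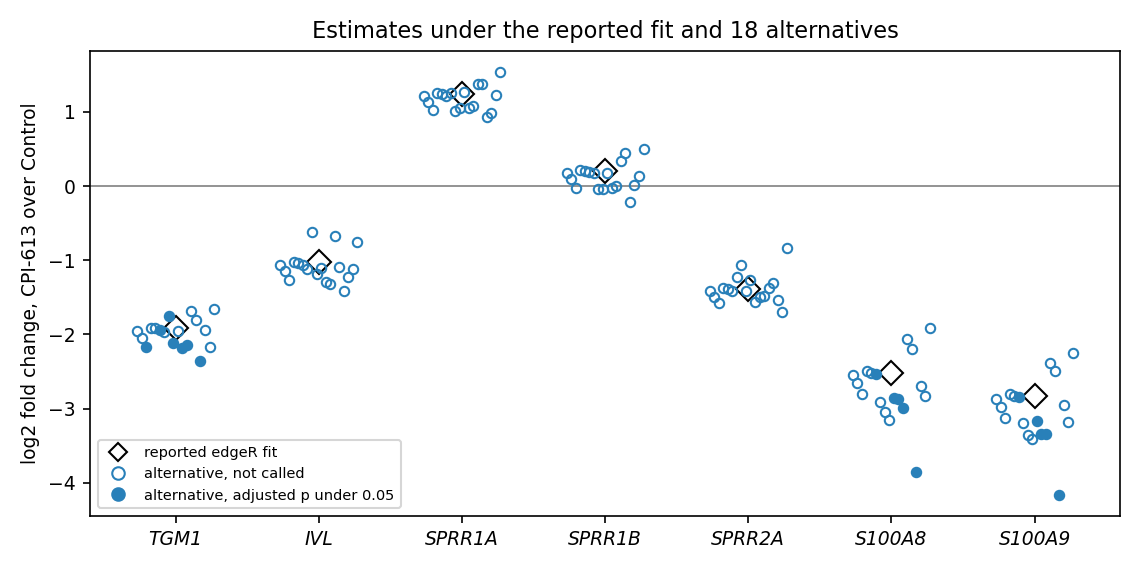
Log2 fold change of CPI-613 over Control for the 7 tested genes under the edgeR fit reported above (diamond) and 18 alternatives (circles, filled where the adjusted p was under 0.05). TGM1 was called in 7 alternatives, S100A8 and S100A9 in 5 each and the other 4 genes in 0; estimates for TGM1, IVL, SPRR2A, S100A8 and S100A9 are below 0 throughout, those for SPRR1A above 0, and those for SPRR1B lie on both sides.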

How the data were processed

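Total RNA of 6 HN12 samples became NEBNext Ultra II libraries read on DNBSEQ, per the labels' protocols. Tools and build listed in the submitters' processing notes, with no roles, are STAR 2.5, CASAVA, HTSeq, DESeq2, edgeR 3.16.5 and hg38. Whether counting used strand is not given in the sources used here. By the file headers, the authors deposited estimated counts per RefSeq transcript (79031 transcripts) and a second table per gene with no unit named. The deposited gene values were taken as FPKM. Over 1144 genes with 1 transcript, the median value per count in each library followed the inverse of the library total within 0.555%. That check covers scaling by depth only, and division by transcript length was not tested. In 27 transcripts 1 cell holds a date; they were left out, none of them from the genes described.

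Estimated counts were summed per gene, rounded, filtered with filterByExpr (minimum count 10, total 15), scaled by TMM and tested for group in edgeR 4.0.16 (quasi-likelihood, two-sided). Benjamini-Hochberg adjustment covered 12671 genes at 0.05. The standard error is the log2 fold change over the square root of F. Rows named by ID alone, 53 genes, held 0.016% of the counts. GC content and length came from GENCODE 29 for 99.44% of tested genes. The edgeR fit as reported was first tested on simulated data, and the alternatives were not. Precision rests on 3 libraries per group, since the spread exceeded counting error.

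The genes, lists, motifs and alternatives were chosen with earlier results of these data known. Named were all 10 genes, up to 4 called genes per list by size of change or, with none called, the 2 most abundant, and the 3 genes most alike to SPRR1B and S100A9. 1 gene that this rule names is not reported here. PTPRC, CD68, LCP1, CSF1R, CDH5, PGLYRP3, PGLYRP4, S100A14, S100A4, KRT6B, PKP1, PPL, CLDN1, ALOXE3, TLR4, FLG, S100A12, SERPINB4, SPINK5 and A2ML1 are named beyond this rule, after their values were seen. Alternatives were other scalings and filters, DESeq2 1.42.0, limma-voom (limma 3.58.1), limma on log2(FPKM + 1) and log2(FPKM + 0.1) for genes with a mean of at least 0.5 FPKM, a replicate block, the GC and length offset, and leaving out each library.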

Additional observations from a re-analysis of the deposited data

How the results depend on the processing

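The directions of TGM1, IVL, SPRR1A, SPRR2A, S100A8 and S100A9 were kept in all 18 alternatives. SPRR1B, not called in any, turned to -0.02 when scaled by library size only, -0.04 by limma on either FPKM scale and -0.02 with the GC and length offset; without each library it ranged from -0.22 (without CPI-613 replicate 3) to 0.50. Lower calls among the 8 genes numbered 0 as reported, 1 (TGM1) when scaled by library size only and by limma on either FPKM scale, 3 by DESeq2, 3 with the GC and length offset, and 0 to 3 without each library, with 3 without CPI-613 replicate 3. No alternative gave a higher call. Over all genes, 403 were called, against 872 by DESeq2, 1460 with the GC and length offset and 0 to 905 without each library (0 without Control replicate 1 or Control replicate 3, 7 without CPI-613 replicate 2, 905 without CPI-613 replicate 1). They split into 246 higher and 157 lower, against 229 and 259 with scaling by library size alone (median over all genes -0.17), and 238 and 255 or 231 and 235 by limma on the FPKM scales. The cause was not tested.

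Replicate numbers did not pair the libraries: same-numbered deviations correlated at 0.564, -0.2 and -0.699. With the replicate block 191 genes were called and 2 of the 8 genes were lower (S100A8 and S100A9), and with the block and the GC and length offset 864 and 3. Below about 10 counts per library, as for SPRR3, S100A7 and SBSN, depth limits any comparison.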
